A study of Mus musculus with 10 samples.

Results

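The genes described here encode voltage-gated calcium channels, voltage-gated sodium channels and hyperpolarization-activated (HCN) channels of the mouse hippocampus. They were chosen by name, as symbols that begin with Cacn, symbols of the form Scn, a number and a or b, and symbols of Hcn and a number. Of 37 genes with such a symbol, 31 passed a minimum on their mean level over the arrays on the log2 scale used throughout, log2(signal + 22), and these 31 are among 13219 genes tested. They are 8 pore-forming alpha1 subunits, 4 alpha2delta, 3 beta and 6 gamma subunits of calcium channels, 5 alpha and 3 beta subunits of sodium channels, and 2 HCN channels. The dimmest genes kept were Hcn3 at 6.71 and Cacng8 at 6.73, and the brightest left out were Scn11a at 6.16 and Cacng6 at 6.15. The other genes left out were Scn9a at 5.92, Cacng1 at 5.77, Cacna1s at 5.72 and Scn10a at 4.94.

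RNA came from hippocampi of 3-week-old mice and was hybridised to 10 oligonucleotide arrays, 2 in each of 5 groups. Wild-type mice (C57BL6 F1/J, a strain given for 1 array of each wild-type group) received saline or kainate at 14 mg/kg. Mice of the line TetO-A-CREB-95 C57BL6 F1/J received saline or kainate at 14 or 18 mg/kg. Each array held a pool from 3 to 4 mice, with 14 wild-type and 20 A-CREB mice in all. A-CREB is a dominant-negative inhibitor that pairs with the transcription factor CREB and keeps it from DNA. TetO is a promoter that needs a tetracycline-controlled activator, and the line that supplies the activator, the cells that carry it and the time from injection to dissection were not stated in the labels. Kainate activates ionotropic glutamate receptors and provokes seizures.

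Voltage-gated calcium channels open on depolarization and let calcium into dendrites, cell bodies and terminals, where it drives transmitter release and signalling to the nucleus, CREB included. The alpha1 subunit forms the pore, the beta and alpha2delta subunits set trafficking and gating, and most gamma subunits of the brain serve AMPA-type glutamate receptors as auxiliary proteins. Sodium channels carry the upstroke of the action potential, and HCN channels carry a depolarizing current that opens on hyperpolarization and shapes dendritic integration in hippocampal pyramidal cells.

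The deposited signals had been scaled to a common trimmed mean, but the median signal was 94.9 to 106 on the 5 arrays numbered 1 and 135 to 152 on the 5 numbered 2, so the replicate number was followed throughout. The lowest reading of the 5 markers of hippocampal excitatory neurons (Neurod6, Zbtb20, Slc17a7, Wfs1 and Prox1) on any array was 240.3, for Prox1. Among markers of striatum, choroid plexus, thalamus, interneurons, glia, endothelium and immature neurons, the lowest reading was Drd2 at 52.8, below every array's median. The deposited signals are all above 0, down to 0.0694, and detection calls were not used. These readings therefore do not show which markers were detected. A probe set for Creb1, the parent gene of A-CREB, read 199 to 281 on the 6 A-CREB arrays and 116 to 193 on the 4 wild-type arrays, without overlap. The other 5 Creb1 probe sets overlapped between the genotypes, and which of them read the transgene is not stated. In pooled tissue, fewer cells of a type and less RNA per cell cannot be told apart.

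Since A-CREB acts on CREB, the promoters of the channel genes were read for the sites that CREB binds. RefSeq windows of 250 bases before to 50 after an annotated start (build GRCm38.p6) were at hand for 23 of the 31 genes, 33 windows in all. The full cAMP response element, TGACGTCA, was in 0 of the 23 genes, against 2.03% of all genes with a window. Its core, TGACG on either strand, also part of the full element, was in 12.1% of the 33 windows and in 20.8% of all windows. The 4 genes with a core were Cacna1b, Cacna1c, Cacna2d1 and Cacnb2. The AP-1 site TGANTCA, bound by Fos and Jun proteins, was in 1 window, of Cacng5, which is 3.03% of the windows against 7.81% of all windows. The 61 bases around each core are given 5′ to 3′ on the gene's strand with the core in capitals. They lie at chr2:24763207-24763267 on the minus strand for Cacna1b, at chr6:119196538-119196598 on the minus strand for Cacna1c, at chr5:15934517-15934577 on the plus strand for Cacna2d1 and at chr2:14823947-14824007 on the plus strand for Cacnb2.
Cacna1b: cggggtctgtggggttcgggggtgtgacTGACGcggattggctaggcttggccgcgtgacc
Cacna1c: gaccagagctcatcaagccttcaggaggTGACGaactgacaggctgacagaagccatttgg
Cacna2d1: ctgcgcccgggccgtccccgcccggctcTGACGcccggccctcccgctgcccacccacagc
Cacnb2: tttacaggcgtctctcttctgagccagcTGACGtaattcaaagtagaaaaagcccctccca
The cores begin 87 bases before the annotated start of their window in Cacna1b, 161 in Cacna1c, 146 in Cacna2d1 and 117 in Cacnb2. Cacna1c and Cacnb2 also have windows at other annotated starts, and those held no core. A match is a description of the letters and not a measured site.

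No channel gene passed the test in any of 9 comparisons (limma, Benjamini-Hochberg adjusted over all genes, threshold 0.05). After kainate at 14 mg/kg in wild type, 0 of 31 rose and 0 fell, where 0.182% of all genes rose and 0% fell. In A-CREB mice 0 of 31 changed at 14 mg/kg (0.31% of all genes rose, 0% fell) and 0 of 31 at 18 mg/kg (0.235% rose, 0% fell). In the mean kainate response, the average of the wild-type response and of the mean A-CREB response, 0 of 31 changed, where 0.658% of all genes rose and 0.0151% fell. None of the 31 and 0% of all genes passed in either direction in the genotype difference under saline, the genotype difference after 14 mg/kg, their mean, the difference between the genotypes' responses at 14 mg/kg, or the difference between the doses in A-CREB mice. A replicate block, which removes the difference between arrays numbered 1 and 2, also gave 0 of 31 in each of the 9 comparisons. With it, 0.62% of all genes rose and 0.0908% fell in wild type, 1.1% and 0.166% in A-CREB at 14 mg/kg, 0.673% and 0.0227% at 18 mg/kg and 1.87% and 0.817% in the mean kainate response. Of the genotype differences with the block, 0.0227% of all genes were higher and 0.0151% lower after 14 mg/kg and 0.0151% each way in the mean, and the remaining 3 comparisons had 0%. With 2 pools a group, these p-values measure the spread between pools.

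Few channel genes had an unadjusted p-value under 0.05 without the replicate block. In wild type after kainate there were 0 higher and 0 lower, where 1.84% of all genes were higher and 1.69% lower. Cacnb2, a calcium channel beta subunit, was the 1 gene lower in A-CREB mice at 14 mg/kg (2.38% of all genes lower, 2.62% higher), at 18 mg/kg (0.961% lower, 1.83% higher) and in the difference between the responses (0.242% lower, 0.484% higher), with 0 channel genes higher. The count was 0 each way in the mean kainate response, where 3.25% of all genes were higher and 4.01% lower, and in the dose difference (0.386% and 0.182%). It was also 0 each way in the genotype difference under saline (0.582% and 0.893%), after 14 mg/kg (0.658% and 0.613%) and in their mean (1.01% each way).

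The replicate block raised these counts, all but 1 of them lower. It gave 3 lower in wild type, namely Cacna1d, Cacna1g and Scn2b (5.89% of all genes lower, 3.87% higher). In A-CREB mice it gave Cacnb1, Cacnb2 and Scn3a as the 3 lower, both at 14 mg/kg (6.62% lower, 5.18% higher) and at 18 mg/kg (4.33% lower, 4.62% higher). The 3 lower in the mean kainate response were Cacna1d, Hcn3 and Scn8a (10.2% lower, 6.23% higher). Under saline Cacng7 was the 1 gene higher in A-CREB mice (2.24% higher, 3.37% lower), and after 14 mg/kg Cacnb1, Scn3b and Scn4b were lower (2.46% lower, 2.52% higher). The mean genotype difference gave Cacna2d3, Scn3b and Scn4b as the 3 lower (3.6% lower, 2.98% higher), and the difference between the responses gave Cacnb1 and Cacnb2 as the 2 lower (1.33% lower, 2.25% higher). The dose difference gave 0 each way (1.12% lower, 1.91% higher). As a share of the 31 genes, 3 are 9.68%, and none of these passed the adjusted threshold.

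Up to 7 of the 31 genes met a weaker criterion, that the arrays of both groups do not overlap. In the wild-type response 2 channel genes were apart and higher (10.2% of all genes) and 6 apart and lower (16.6%). The A-CREB response gave 1 higher (13%) and 2 lower (16%) at 14 mg/kg, and 0 higher (12.4%) and 7 lower (12.2%) at 18 mg/kg. The genotype difference gave 3 higher (8.76%) and 5 lower (13.1%) under saline, and 1 higher (9.99%) and 5 lower (11.8%) after 14 mg/kg. The doses in A-CREB gave 0 higher (11.3%) and 4 lower (7.24%). As a share of the 31 genes, the 7 at 18 mg/kg are 22.6%, and these were Cacna1c, Cacnb1, Cacnb2, Cacnb4, Scn3a, Scn7a and Scn8a.

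**Figure D1:**
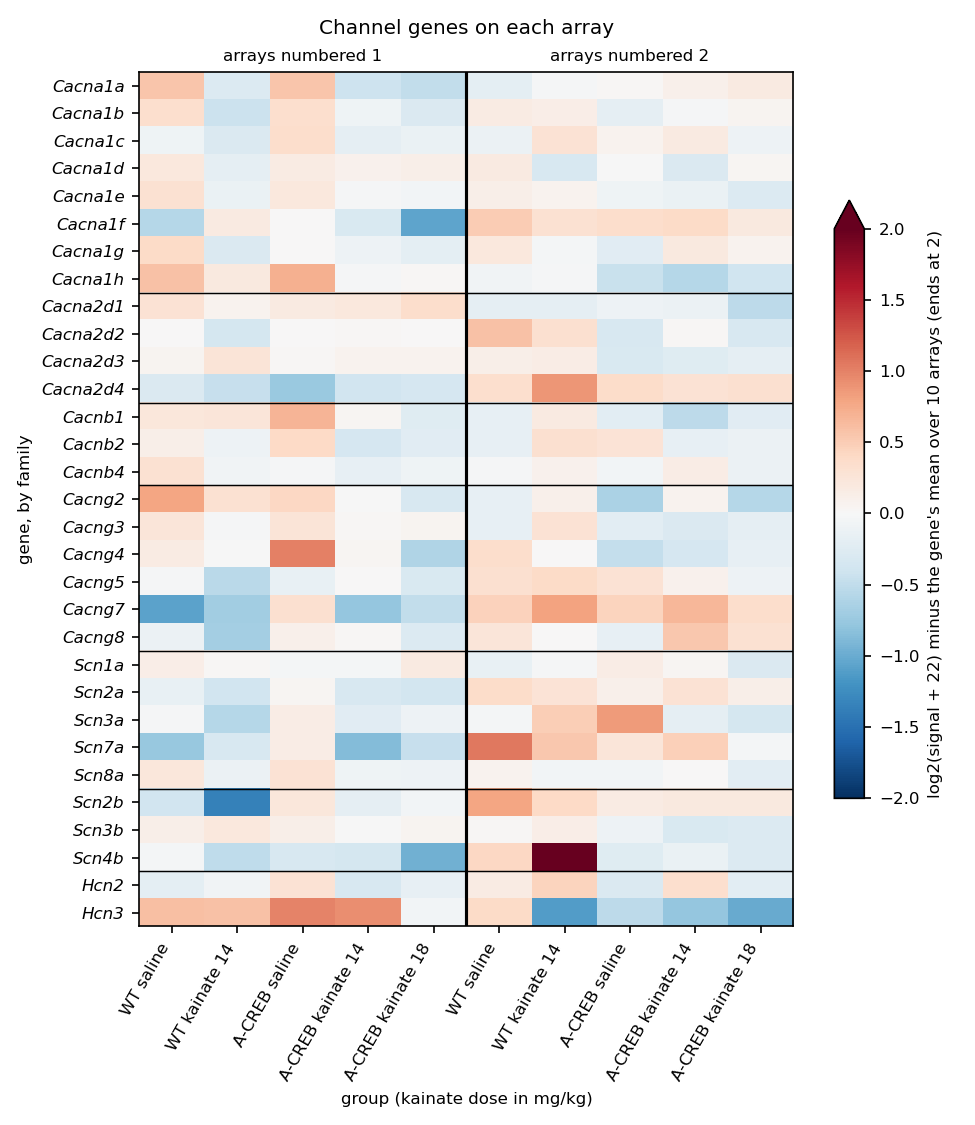
Each row is 1 of the 31 channel genes and each column 1 array, with arrays numbered 1 on the left and 2 on the right; colour is log2(signal + 22) minus the gene's mean over the 10 arrays, on a scale that ends at 2. Cacna2d4, Cacng7 and Scn7a are lower on the left and Hcn3 on the right, and Scn4b stands out on 1 wild-type kainate array.

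The precision differed between genes. For the mean kainate response, the 95% interval lay within a log2 difference of 1 either way for 26 of the 31 genes, and for 30 with the replicate block. Without the block all 31 intervals held 0, and with it those of Cacna1d (-0.52 to -0.02), Hcn3 (-1.16 to -0.06) and Scn8a (-0.42 to -0.03) did not. The widest bounds, without the block, were -1.77, for Hcn3, and 1.37, for Scn4b. For single comparisons the intervals were wider: 20 of 31 lay within 1 in the wild-type response, 17 in each A-CREB response and 8 in the difference between the responses.

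**Figure D2:**
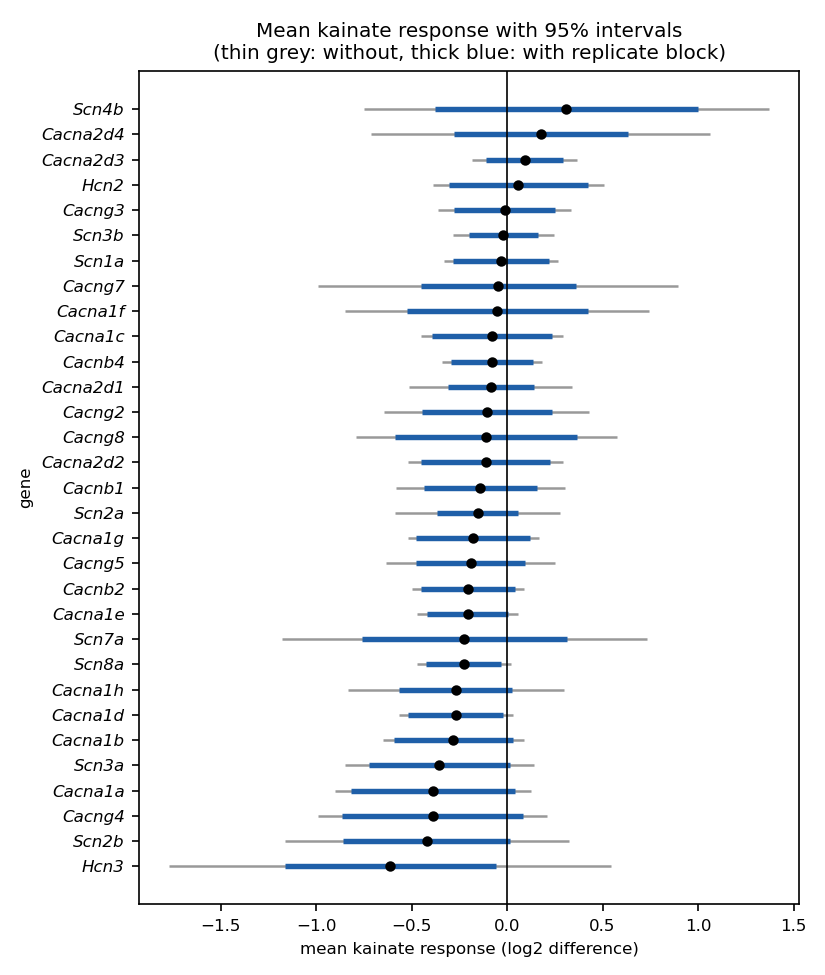
The mean kainate response of each of the 31 genes is shown as a log2 difference on the horizontal axis, with 95% intervals without (grey) and with (blue) the replicate block. Points run from -0.61 for Hcn3 to 0.31 for Scn4b, and all 31 grey intervals cross 0.

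More of the channel genes lay below 0 than above it after kainate, without passing the test. The mean kainate response was below 0 for 27 of 31 genes, against 56.3% of all genes, with a median of -0.14 on the log2 scale against -0.03 for all genes. By family, this held for 8 of 8 alpha1, 3 of 3 beta and 6 of 6 gamma calcium channel subunits, 5 of 5 sodium alpha and 2 of 3 sodium beta subunits, 2 of 4 alpha2delta subunits and 1 of 2 HCN channels. These counts use 1 probe set a gene. Of all tested probe sets, 1 of 3 was below 0 for Cacng2 and for Scn2b, 1 of 2 for Cacng5 and 3 of 4 for Cacna2d1. In single comparisons, 19 of 31 were below 0 in wild type (58.3% of all genes), 21 in A-CREB at 14 mg/kg (54.1%) and 26 at 18 mg/kg (49.7%). Both A-CREB comparisons share their saline arrays. Between the genotypes, 20 were below 0 under saline (55.5%), 19 after 14 mg/kg (52.5%) and 16 in the mean (55.9%), and 17 were in the difference between the responses (48.1%) and 21 in the dose difference (45.3%). The mean kainate response rested on single arrays: without array 1 of wild-type kainate 19 genes were below 0 with a median of -0.04, without array 2 of wild-type kainate 29 with a median of -0.24, and without array 1 of A-CREB saline 23 with a median of -0.08.

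The excess below 0 was seen on arrays numbered 1. Between same-numbered arrays, kainate minus saline was below 0 for 24 of 31 genes in wild type, 25 in A-CREB at 14 mg/kg and 27 at 18 mg/kg on arrays numbered 1, where 52.3%, 50.2% and 45.8% of all genes were below 0. On arrays numbered 2 the counts were 13, 13 and 17, where 59.1%, 57.7% and 54.2% of all genes were below 0. Median differences were -0.25, -0.31 and -0.39 on arrays numbered 1 and 0.05, 0.05 and -0.04 on arrays numbered 2. A difference in direction between the numbers was not tested across samples, since each number holds 1 array a group.

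**Figure D3:**
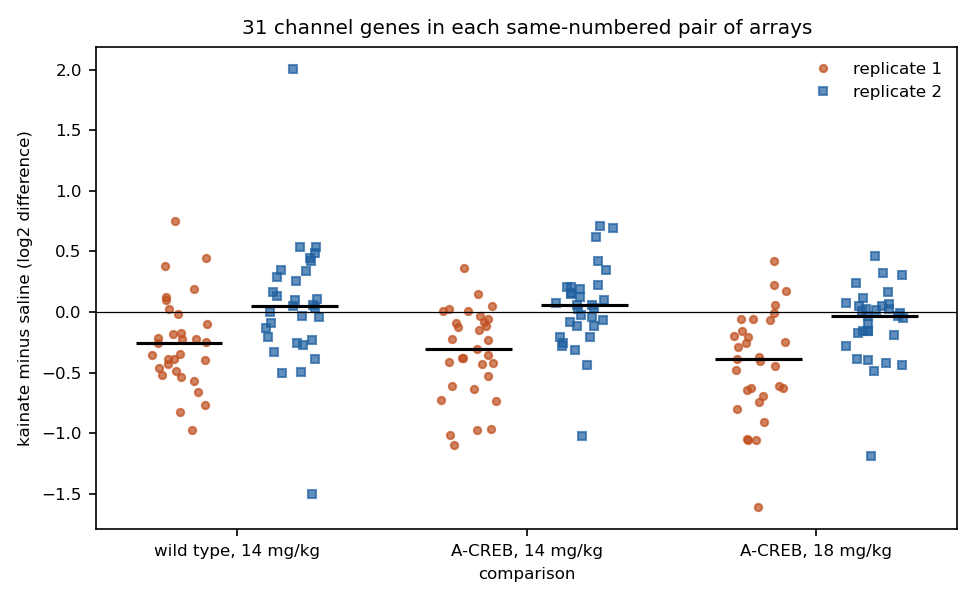
Each point is 1 of the 31 channel genes, as the log2 difference of kainate minus saline between arrays of the same number (circles for 1, squares for 2) in each of 3 comparisons; bars are medians. Points of arrays numbered 1 lie mostly below 0 with medians from -0.25 to -0.39, and those of arrays numbered 2 lie around 0.

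Summed signals of marker genes also differed between kainate and saline on arrays numbered 1, in directions that differed between lists. The summed signal of the 5 excitatory neuron markers went from 15855 under saline to 12786 after kainate in wild type on arrays numbered 1, and from 19232.5 to 11371 at 14 mg/kg and 12479 at 18 mg/kg in A-CREB. On arrays numbered 2 it went from 16284 to 14816 and from 14902 to 14574 and 14256. The sum was thus lower after kainate in all 6 same-numbered comparisons, and by more on arrays numbered 1. Prox1, the dimmest of the 5 markers, was also lower after kainate on arrays numbered 1 but higher on arrays numbered 2. There it read 259 and 607 in wild type and 501, 523 and 612 in A-CREB. Oligodendrocyte markers, 5 of 6 measured, went the other way on arrays numbered 1, from 67920.5 to 80960.0 in wild type and from 65361 to 79074 and 77813 in A-CREB. On arrays numbered 2 the oligodendrocyte sum was 70892 and 67468 in wild type and 64379.8, 67223 and 60189 in A-CREB. The 6 interneuron markers summed to 21945 under saline and 28399 after kainate in wild type on arrays numbered 1, and to 22942, 26110 and 24660.2 in A-CREB, higher after kainate where the excitatory sum was lower. On arrays numbered 2 the interneuron sum was 21587 and 22437 in wild type and 21493.5, 22282 and 19669 in A-CREB. The 7 choroid plexus markers summed to 32750.2 and 44398 in wild type on arrays numbered 1, and to 30593 and 31217 on arrays numbered 2. In A-CREB mice they summed to 33239, 39592 and 39794 on arrays numbered 1 and to 26560.3, 30779 and 24791 on arrays numbered 2, in the order saline, 14 and 18 mg/kg. A sum leans on its brightest genes, and Ttr alone read 21939 to 38808. The 5 astrocyte markers had no shared direction on arrays numbered 1. They summed to 21884 and 20117 in wild type and to 24816, 26888 and 24735 in A-CREB. Microglia, endothelium and thalamus sums had no shared direction there either. The striatal sum was lower after kainate on arrays numbered 1, at 1686 and 1305 in wild type and 1710, 1477 and 1226 in A-CREB. On arrays numbered 2 it was 2748 and 5712, and 1999, 1601 and 1606. Oligodendrocyte precursor markers summed higher after kainate on arrays numbered 1, at 10415 and 11149.5 in wild type and 9401, 11870 and 10795 in A-CREB. On arrays numbered 2 they summed to 9837 and 9621, and 10149, 9565 and 8408. The part of these shifts in the channel genes' direction was not tested.

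Among the alpha1 subunits, Cacna1g, Cacna1d, Cacna1b and Cacna1e had no overlap between kainate and saline arrays in wild type. Cacna1g, which forms a low-voltage-activated T-type channel, read 377 and 333 on arrays 1 and 2 of wild-type saline and 231 and 276 after kainate, then 287 and 239.9 in A-CREB saline, 263 and 328 at 14 mg/kg and 246 and 302 at 18 mg/kg. It was highest in wild-type saline, and the A-CREB groups overlapped each other. Its log2 difference was -0.46 (SE 0.23) in the wild-type response and -0.40 (SE 0.23) for A-CREB against wild type under saline, and its A-CREB response minus its wild-type response was 0.61 (SE 0.33). The adjusted p in limma was 0.9999 in all 3 comparisons. With the replicate block the wild-type response had an unadjusted p of 0.0484 and an adjusted p of 0.511.

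Cacna1d, an L-type channel that opens at more negative potentials than most of its class, read 453 and 444 in wild-type saline and 339.8 and 308 after kainate. In A-CREB mice it read 441 and 387 under saline, 413 and 315 at 14 mg/kg and 423 and 402 at 18 mg/kg. The wild-type kainate arrays were below both saline arrays, while the A-CREB groups overlapped. The wild-type difference was -0.45 (SE 0.20, limma adjusted p 0.9999; with the replicate block unadjusted p 0.0242, adjusted p 0.414), and the difference between the responses was 0.26. Cacna1b, the N-type channel of presynaptic terminals, read 1075 and 949 in wild-type saline and 621 and 929 after kainate, a difference of -0.40 (SE 0.25, limma adjusted p 0.9999). Its array 2 after kainate lay just below the lower saline array, and its A-CREB arrays overlapped, with 1073 and 746 under saline, 793 and 835 at 14 mg/kg and 687 and 885 at 18 mg/kg.

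Cacna1e, which forms the R-type channel of hippocampal pyramidal cells, was the alpha1 gene below its same-numbered saline array in 6 of 6 comparisons. It read 2524 and 2217 in wild-type saline and 1867 and 2151 after kainate, and 2361 and 1927 in A-CREB saline, 2015 and 1868 at 14 mg/kg and 1977 and 1691 at 18 mg/kg. Both wild-type kainate arrays were below both saline arrays (-0.24, SE 0.18). Its mean kainate response was -0.21 (SE 0.12, limma adjusted p 0.831; with the replicate block 0.313). Of all genes, 9.49% were lower in 6 of 6, as were 2 of 31 channel genes. Cacna1c, the main L-type channel of the brain, read 305 and 296 in wild-type saline, below both A-CREB saline arrays at 419 and 339, a difference of 0.31 (SE 0.25, limma adjusted p 0.9999). It read 261 and 402 in wild-type kainate, 284 and 372 in A-CREB at 14 mg/kg and 294 and 302 at 18 mg/kg. The 18 mg/kg arrays were below both A-CREB saline arrays, and the 14 mg/kg arrays overlapped them.

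The remaining alpha1 genes showed no group apart in wild type. Cacna1a, the P/Q-type channel of fast-releasing terminals, had mean kainate response -0.39 (SE 0.23, limma adjusted p 0.84), and its signal went from 447 to 242 between wild-type arrays numbered 1 but from 258 to 292 between those numbered 2. Cacna1h, a T-type channel, had -0.27 (SE 0.25) and a signal higher on array 1 than on array 2 in every group. Cacna1f, an L-type channel best known from the retina, had -0.05 (SE 0.36) on signals of 37.2 to 153.

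In the mean kainate response, the alpha2delta subunits were the calcium channel family without a shared direction, with 2 of 4 below 0. Single comparisons differed: 2 of 4 were below 0 in wild type, and 4 of 4 were above 0 in A-CREB at 14 mg/kg, by up to 0.18. Cacna2d3, which supports channel delivery to terminals, read 2587 and 2684 in wild-type saline, 2955 and 2742 after kainate, 2513 and 2004 in A-CREB saline, 2606 and 2092 at 14 mg/kg and 2615 and 2175 at 18 mg/kg. In wild type its kainate arrays were above both saline arrays (0.11, SE 0.19). It was above its saline array in 6 of 6 same-numbered comparisons, with a mean kainate response of 0.09 (SE 0.12, limma adjusted p 0.977), where 5.86% of all genes were higher in 6 of 6. Both A-CREB groups of matched treatment lay below the wild-type group of the same treatment, 4 of 4 same-numbered comparisons, by -0.23 (SE 0.19) under saline and -0.28 (SE 0.19) after 14 mg/kg, with a mean genotype difference of -0.26 (SE 0.13, limma adjusted p 0.9996; unadjusted p 0.0819). With the replicate block the unadjusted p of that difference was 0.022 and the adjusted p 0.675. Cacng2 was the other channel gene lower in 4 of 4, where 9.4% of all genes were, and 0 were higher in 4 of 4, where 5.92% of all genes were.

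Cacna2d2, a target of gabapentin as is Cacna2d1, read 718 and 1084 in wild-type saline, 556 and 892 after kainate, 720.4 and 564 in A-CREB saline, 724 and 722 at 14 mg/kg and 717 and 569 at 18 mg/kg. The 14 mg/kg arrays were just above both A-CREB saline arrays, a difference of 0.18 (SE 0.27, limma adjusted p 0.9999), and just above both 18 mg/kg arrays, which were lower by a log2 difference of -0.17 (SE 0.27). Cacna2d1 ran from 2082 to 3840.4 and Cacna2d4 from 43.3 to 179, with mean kainate responses of -0.09 and 0.18.

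The beta subunit Cacnb2, which helps to place and open the pore, had the smallest p-value of the 31 genes in both A-CREB responses. It read 1416 and 1305 in A-CREB saline, 848 and 960.0 at 14 mg/kg and 911 and 994 at 18 mg/kg. In wild type it read 1168 and 955 under saline and 999.8 and 1344 after kainate. The A-CREB saline arrays were above all 4 A-CREB kainate arrays and above both wild-type saline arrays, while the wild-type groups overlapped each other. The A-CREB response was -0.58 (SE 0.20, limma adjusted p 0.749, with the replicate block 0.168) at 14 mg/kg and -0.50 (SE 0.20, adjusted p 0.9999, with the block 0.388) at 18 mg/kg.

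In wild type the Cacnb2 response was 0.13, and the difference between the responses was -0.71 (SE 0.28, 95% interval -1.34 to -0.09, unadjusted p 0.0299, limma adjusted p 0.9999). This difference has 2 parts of like size, since A-CREB against wild type was 0.36 (SE 0.20) under saline and -0.35 (SE 0.20) after 14 mg/kg. A second probe set for Cacnb2 read 745 and 692 in A-CREB saline, 461 and 497 at 14 mg/kg and 423 and 586 at 18 mg/kg, against 495 and 556 in wild-type saline and 371 and 736 after kainate. It gave -0.56 (SE 0.30) and -0.51 (SE 0.30) for the A-CREB responses, 0.44 under saline and -0.56 for the difference between the responses. Both probe sets thus had their highest group mean under saline in A-CREB mice, and neither passed the adjusted threshold. The CRE core shown for Cacnb2 is a feature it shares with Cacna1b, Cacna1c and Cacna2d1. Their A-CREB responses at 14 mg/kg were -0.13, -0.20 and 0.00, and a relation of the core to the responses was not tested.

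Cacnb1 read 980.4 and 520.5 in A-CREB saline, 625 and 414 at 14 mg/kg and 512 and 517 at 18 mg/kg, and 710.2 and 538 in wild-type saline and 724 and 689.8 after kainate. The A-CREB arrays at 14 mg/kg were below both wild-type kainate arrays, by -0.46 (SE 0.30), and the difference between the responses was -0.66 (SE 0.43), both with an adjusted p of 0.9999 in limma. With the replicate block their unadjusted p was 0.0457 and 0.0418 and their adjusted p 0.9979 and 0.9998. At 18 mg/kg the difference from saline was -0.46 (SE 0.30), on 1 high saline array and 1 that exceeded the kainate arrays by little. With the block, the A-CREB responses of Cacnb1 had an adjusted p of 0.387 at 14 mg/kg and 0.542 at 18 mg/kg. Cacnb4 had a mean kainate response of -0.08 (SE 0.12) on signals of 3197 to 4471.

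**Figure D4:**
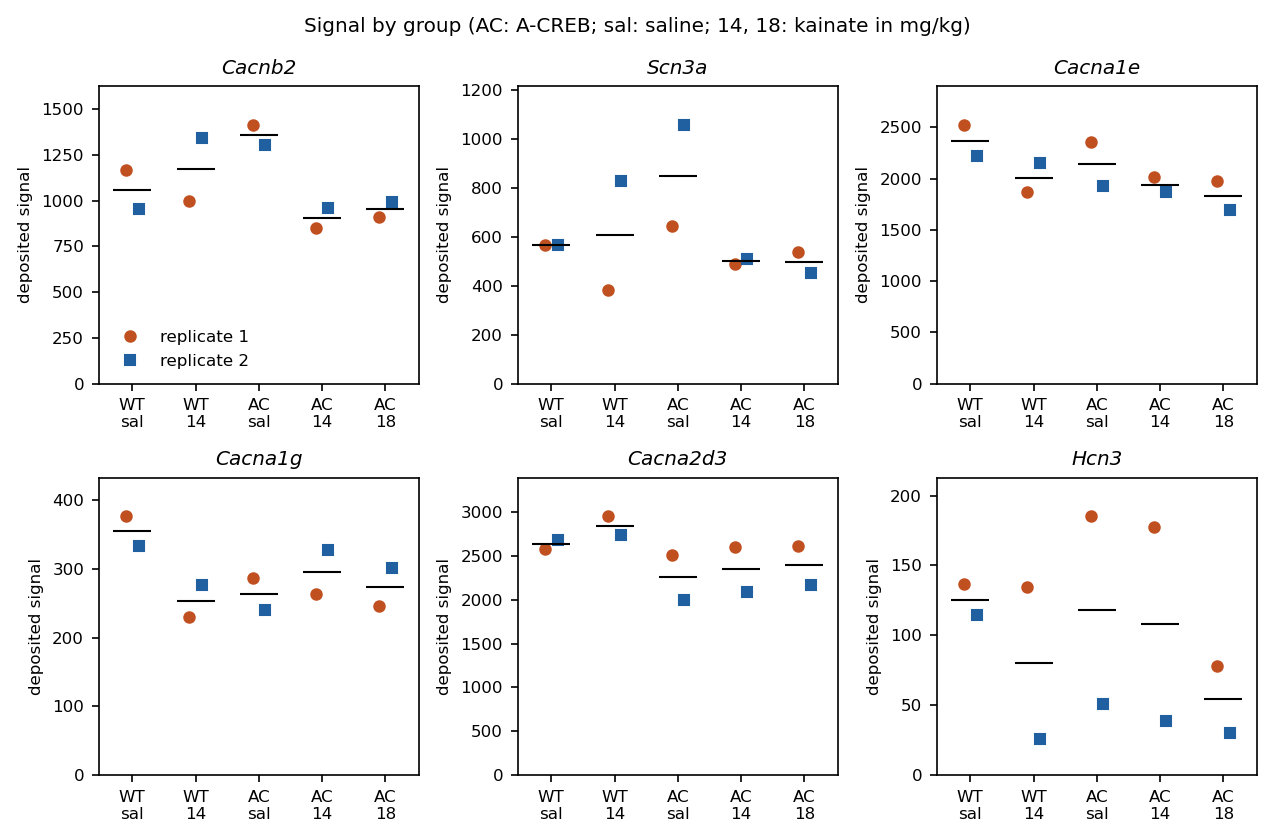
Deposited signal on the vertical axis for 6 channel genes in the 5 groups (WT, wild type; AC, A-CREB; sal, saline; 14 and 18, kainate in mg/kg), with circles for array 1, squares for array 2 and a bar at the group mean. The A-CREB saline arrays of Cacnb2 lie above all 4 A-CREB kainate arrays, while Hcn3 is lower on array 2 than on array 1 in every group.

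The gamma subunits, most of them auxiliary proteins of AMPA receptors, varied widely between the arrays of a group. Cacng2, or stargazin, read 1336 and 679 in wild-type saline, 948 and 815 after kainate, 1021 and 483 in A-CREB saline, 756 and 794 at 14 mg/kg and 601 and 506 at 18 mg/kg. Its 18 mg/kg arrays were below both 14 mg/kg arrays (-0.47, SE 0.36) and its mean genotype difference was -0.30 (SE 0.26), with an adjusted p of 0.9999 and 0.9996 in limma. Cacng8 read 76.1 and 104 in wild-type saline, 44.2 and 85.3 after kainate, 92.4 and 72.6 in A-CREB saline, 85.9 and 133 at 14 mg/kg and 66.3 and 109 at 18 mg/kg. After 14 mg/kg both A-CREB arrays were above both wild-type arrays, the higher wild-type array by less than 1 signal unit, for a difference of 0.62 (SE 0.46), and the difference between the responses was 0.71 (SE 0.65), both with an adjusted p of 0.9999 in limma.

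Cacng7 had the lowest value of the difference between the responses, -0.80 (SE 0.90, limma adjusted p 0.9999). It read 190.0 and 595 in wild-type saline, 253 and 757 after kainate, 535 and 589 in A-CREB saline, 239 and 684 at 14 mg/kg and 297 and 548 at 18 mg/kg, so that arrays numbered 1 were all below those numbered 2. Under saline its genotype difference was 0.69 (SE 0.64; with the replicate block unadjusted p 0.0296, adjusted p 0.8735 in limma). Cacng4 read 452 and 514 in wild-type saline, 396 and 404 after kainate, 830.1 and 280.4 in A-CREB saline, 414 and 313 at 14 mg/kg and 257 and 357 at 18 mg/kg. Its wild-type groups did not overlap, while its A-CREB saline arrays spanned all other arrays but 1. Without array 2 of A-CREB saline its mean kainate response was -0.76 (limma adjusted p 0.14), the lowest adjusted p of any channel gene under any alternative. Cacng5 read 484 and 514 at 14 mg/kg and 388 and 449 at 18 mg/kg in A-CREB mice, a difference of -0.25 (SE 0.30), and Cacng3 had a mean kainate response of -0.01 (SE 0.16).

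Among the sodium channel alpha subunits, Scn3a, the form most abundant in early development, had its highest group under saline in A-CREB mice, as Cacnb2 did. It read 642 and 1057 in A-CREB saline, 489 and 509.6 at 14 mg/kg and 539 and 451 at 18 mg/kg, and 567 and 564 in wild-type saline and 384 and 826 after kainate. The A-CREB saline arrays were above all 4 A-CREB kainate arrays and both wild-type saline arrays, with the higher of them far above the other. The differences were -0.70 (SE 0.34) at 14 mg/kg, -0.72 (SE 0.34) at 18 mg/kg and 0.53 (SE 0.34) for A-CREB against wild type under saline, with an adjusted p of 0.9999 in limma for each. With the replicate block the A-CREB responses had an unadjusted p of 0.0176 and 0.0154 and an adjusted p of 0.289 and 0.434. The wild-type response was -0.00, and the difference between the responses -0.70.

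Markers of immature neurons were measured beside Scn3a. The 4 genes summed to 3143 and 3218 in A-CREB saline, 2315 and 3734 at 14 mg/kg, 2501 and 3502 at 18 mg/kg, 2672 and 2298 in wild-type saline and 2066 and 2617 after kainate. The A-CREB saline arrays were above both wild-type saline arrays here too, but after kainate the sum was lower on arrays numbered 1 and higher on arrays numbered 2. Their part in the Scn3a values was not tested.

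Scn8a, which carries much of the current at the axon initial segment, had the smallest adjusted p of the channel genes in the mean kainate response. It read 4307 and 3864 in wild-type saline, 3387 and 3531 after kainate, 4497 and 3544 in A-CREB saline, 3459 and 3682 at 14 mg/kg and 3433 and 3183 at 18 mg/kg. The wild-type kainate arrays were below both saline arrays, as were the 18 mg/kg arrays in A-CREB. The mean response was -0.23 (SE 0.11, limma adjusted p 0.741, with the replicate block 0.231), and all 4 tested probe sets of Scn8a were below 0, from -0.25 to -0.17. Scn2a, the main sodium channel of excitatory axons early in life, had -0.15 (SE 0.19), Scn1a, prominent in inhibitory neurons, had -0.03 (SE 0.13), and Scn7a, a sodium sensor of glia and circumventricular organs, had -0.22 (SE 0.43).

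Scn4b, a sodium channel beta subunit that is strong in striatal neurons, had the largest deviation of any of the 31 genes on any array, 2.43 above its mean on the log2 scale. It read 252 and 356 in wild-type saline, 177 and 1497 after kainate, 204 and 217 in A-CREB saline, 199 and 235 at 14 mg/kg and 123 and 211 at 18 mg/kg. Array 2 of wild-type kainate was above every other array and array 1 was below both saline arrays. The wild-type response was 0.77 (SE 0.72, limma adjusted p 0.9999), -0.69 without array 2 and 2.24 without array 1 (adjusted p 0.166). Under saline, both A-CREB arrays were below both wild-type arrays, by -0.47 (SE 0.72). After 14 mg/kg the genotype difference of Scn4b was -1.21 (SE 0.72; with the replicate block unadjusted p 0.0262, adjusted p 0.963 in limma), on a wild-type group that holds the outlying array.

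Striatal markers stood out on the same array. The 5 measured of 7 (Drd1, Drd2, Ppp1r1b, Rgs9 and Rarb) summed to 5712 on array 2 of wild-type kainate and to 1226 to 2748 on the other 9, the next highest being array 2 of wild-type saline. Each of the 5 was highest on that array. Drd1, for example, read 1659 there and 164 to 733 elsewhere, and Drd2 read 449 there and 52.8 to 191 elsewhere. Their part in the Scn4b value was not tested. Scn2b, which neighbours Scn4b in the RefSeq annotation, read 6373 and 4858 on arrays 2 of wild-type saline and kainate.

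**Figure D5:**
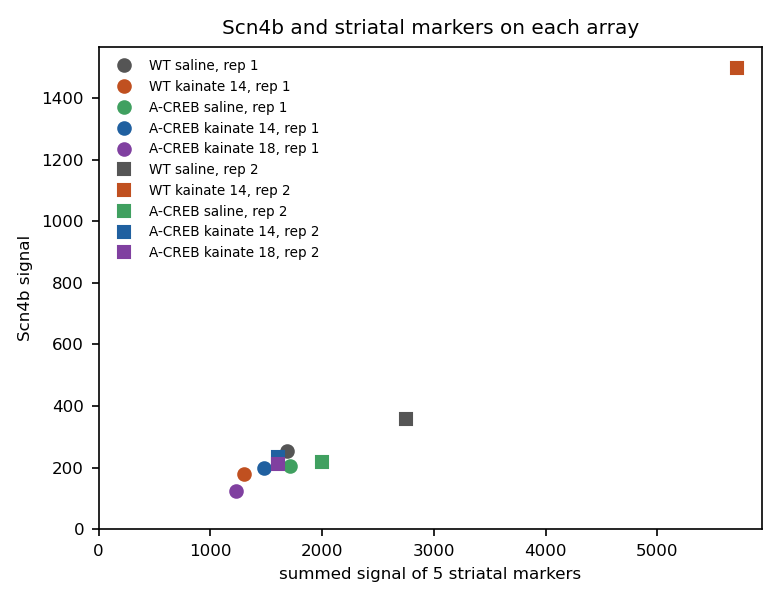
Scn4b signal (vertical axis) against the summed signal of 5 striatal markers (horizontal axis) on each of the 10 arrays, with colour for the group, circles for array 1 and squares for array 2. Array 2 of wild-type kainate lies apart on both axes, at 5712 and 1497.

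The other sodium beta subunits gave small or divided values. Scn3b read 5481 and 5155 in wild-type saline, 5876 and 5555 after kainate, 5505 and 4713 in A-CREB saline, 5042 and 4072 at 14 mg/kg and 5275 and 4178 at 18 mg/kg. Its kainate arrays were above its saline arrays in wild type (0.10, SE 0.18), and the A-CREB arrays at 14 mg/kg were below both wild-type kainate arrays (-0.33, SE 0.18), with an adjusted p of 0.9999 in limma for each. With the replicate block the latter had an unadjusted p of 0.0193 and an adjusted p of 0.956. Scn2b read 2835 and 6373 in wild-type saline, 1433 and 4858 after kainate, 4321 and 4124 in A-CREB saline, 3245 and 4222 at 14 mg/kg and 3543 and 4202 at 18 mg/kg. Its wild-type response was -0.68 (SE 0.50, limma adjusted p 0.9999; with the replicate block unadjusted p 0.0442, adjusted p 0.498). That value is from the probe set used, the only 1 of its 3 tested probe sets below 0 in wild type. The 3 ran from -0.68 to 0.99. The difference between its responses was 0.49 (SE 0.71, limma adjusted p 0.9999), and its 3 tested probe sets gave mean kainate responses of -0.42, 0.04 and 0.65.

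Of the HCN channels, Hcn3 read 137 and 114 in wild-type saline, 135 and 26.1 after kainate, 185 and 50.9 in A-CREB saline, 178 and 39.0 at 14 mg/kg and 78.4 and 29.9 at 18 mg/kg. It was below its same-numbered saline array in 6 of 6 comparisons, though on arrays numbered 1 the drop was small at 14 mg/kg in both genotypes. The mean kainate response was -0.61 (SE 0.52, limma adjusted p 0.922). With the replicate block the unadjusted p was 0.0327 and the adjusted p 0.251. Hcn2 ran from 283 to 499.6, with a mean kainate response of 0.06 (SE 0.20).

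More channel genes passed the test for the replicate number than for any treatment, but the 2 tests differ in power. The number sets 5 arrays against 5, where most of the comparisons set 2 against 2. Arrays numbered 2 differed from arrays numbered 1 in 13 of 31 genes (limma with the replicate number as a term, adjusted p under 0.05), 8 higher and 5 lower, where 20.6% of all genes were higher and 14.3% lower. The 8 higher were Cacna1f, Cacna2d4, Cacng5, Cacng7, Scn2a, Scn2b, Scn4b and Scn7a, and the 5 lower were Cacna1h, Cacna2d1, Cacnb1, Cacng2 and Hcn3. In limma over all probe sets instead of genes, Cacnb1 and Scn4b missed the threshold (adjusted p 0.0523 and 0.0598). The log2 difference ran from -1.22 (SE 0.25, adjusted p 0.0022) for Hcn3 to 1.09 (SE 0.18, adjusted p 0.000645) for Cacng7. The number took a median of 30.6% of a channel gene's sum of squares and the group 31.8%, against 29.5% and 33.5% over all genes.

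Probe sets of 1 gene did not always share that direction. For Scn2a, the probe set used was higher on arrays numbered 2 (0.47, limma adjusted p 0.00354 over all probe sets) and another was lower (-0.43, adjusted p 0.0021). For Scn2b, 2 of its probe sets were higher (0.69 and 0.75) and 1 lower (-0.35, adjusted p 0.0164). The probe set used for Scn1a did not pass (-0.10), while the other 2 were higher (0.81 and 0.95). Opposite signs within a gene are differences between probe sets and not a level of the gene. In the mean kainate response, the tested probe sets were all below 0 for 15 of the 19 genes with several, and had both signs for the other 4, which were Cacna2d1, Cacng2, Cacng5 and Scn2b. All 4 of Cacna1b (-0.58 to -0.28), all 4 of Scn2a (-0.24 to -0.04) and all 3 of Scn1a (-0.18 to -0.03) were below 0. No tested probe set of the 31 genes, 63 in all, passed the threshold in a comparison without or with the replicate block.

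Genes that act on or beside the channels were read as 4 lists. Of the channel regulators and anchors, 21 of 26 were measured and 1 rose in each kainate comparison: Gem, a small GTPase of the RGK family that binds beta subunits and restrains calcium channels. Gem read 75.8 and 51.4 in wild-type saline, 477 and 342 after kainate, 136 and 84.2 in A-CREB saline, 768 and 775 at 14 mg/kg and 543 and 895 at 18 mg/kg. Every kainate array was above every saline array. The rise on the log2 scale was 2.33 (SE 0.32, limma adjusted p 0.0217) in wild type, 2.61 (SE 0.32, adjusted p 0.00762) in A-CREB at 14 mg/kg, 2.47 (SE 0.32, adjusted p 0.0161) at 18 mg/kg and 2.44 (SE 0.21, adjusted p 0.000426) in the mean kainate response.

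The mean rise of Gem passed under every alternative it could be fitted in, 19 of 19, with values from 1.89 to 2.65. The single comparisons were less firm. In wild type the adjusted p was 0.0739 and 0.22 without array 1 and array 2 of wild-type saline, 0.279 and 0.0758 without array 1 and array 2 of wild-type kainate, and 0.0614 and 0.0554 without array 1 and array 2 of A-CREB at 14 mg/kg. In A-CREB at 14 mg/kg it was 0.0725 without array 2 of saline and 0.103 and 0.0826 without array 1 and array 2 of 14 mg/kg. At 18 mg/kg it was 0.115 and 0.122 without array 1 and array 2 of saline and 0.182 without array 2 of 18 mg/kg. The rise itself stayed between 2.10 and 2.90 when any array was left out.

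Rimbp2, which links presynaptic calcium channels to the release machinery, had a mean kainate response of -0.63 (SE 0.19, limma adjusted p 0.357) that passed with the replicate block alone (adjusted p 0.019). It read 912 and 874 in wild-type saline, 589.5 and 390.0 after kainate, 817 and 477 in A-CREB saline, 474 and 473 at 14 mg/kg and 544 and 396 at 18 mg/kg. Its kainate arrays were below its saline arrays in wild type, and its 14 mg/kg arrays were barely below the lower A-CREB saline array. The other lists held no gene past the threshold without or with the block: 13 of 14 genes of calcium stores (ryanodine and IP3 receptors, store-operated entry, reticulum pumps), 8 of 9 of calcium extrusion and 22 of 26 calcium sensors and buffers were measured. Medians of the mean kainate response were -0.08 for the regulators, -0.08 for stores, -0.11 for extrusion and -0.02 for sensors and buffers, against -0.14 for the channel genes.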

How the data were processed

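The deposited values are linear intensity, 1 signal per probe set and array, which the authors made with MAS5 in GCOS, per the submitters' processing notes. Their versions and settings were not given in the sources used here. Each array's 2% trimmed mean is close to 500.002, so the signals had been scaled. The arrays hold 45101 probe sets, of which 64 are controls and were dropped. The platform annotation names 1 gene for 34945, several for 932 and none for 9160. The analysis used log2(signal + 22), with 22 near the 20th percentile of all signals, which understates changes of dim genes. Probe sets in the upper 60% by mean were kept (27023), and a gene was its probe set with the highest mean, which gave 13219 genes. The number of arrays limits the precision.

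All 10 arrays were fitted in limma 3.58.1 under R 4.3.3 (lmFit, contrasts.fit, eBayes with an intensity trend, 5 residual degrees of freedom, two-sided), with Benjamini-Hochberg adjustment within each of 9 comparisons, and the procedure was tested on simulated data. The labels share replicate numbers 1 and 2 between groups without saying what they mark. Same-numbered arrays deviated together in all 10 pairs of groups (correlations 0.517 to 0.642), and each of the 10 was closest to another of its own number, so the replicate block (4 residual degrees of freedom) is given beside results whose unadjusted p it takes below 0.05.

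The genes, partner lists, markers and motifs were chosen with earlier results of these data known. Members with their own differences are, per comparison, up to 3 with the largest rise and 3 with the largest fall among those whose arrays, or all same-numbered pairs, separate; Scn4b, Scn8a and others named for a range or an extreme were added after their values were seen. Partner genes are named where they passed without or with the block. Alternatives were pseudocounts of 5.5 and 88, no filter and the upper 40%, quantile normalization, no intensity trend, averaging all tested probe sets of a gene, dropping probe sets that may cross-hybridise (suffixes _s_at, _x_at and _a_at), fitting a comparison's groups alone, the replicate block, and fits that omit 1 array in turn.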

Additional observations from a re-analysis of the deposited data

How the results depend on the processing

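The count of channel genes past the threshold was 0 in each of the 9 comparisons and stayed 0 under all 20 alternatives (180 of 180 counts), among them the replicate block, which changed no call of a channel gene. Of 716 recomputed values of single channel genes, 712 kept their direction and their side of the threshold. That count was largely fixed in advance and is not a measure of robustness. Nearly all of these values had been chosen because their arrays or same-numbered pairs separate. Several alternatives, such as the replicate block or omitting an array outside the comparison, leave a difference unchanged. The others belonged to Scn2b and Scn4b, and the cause was not tested. The difference between the responses of Scn2b, 0.49 as reported, was -0.14 as the mean of its probe sets and ran from -0.38 to 1.37 when an array was left out. The wild-type response of Scn4b, 0.77 as reported, ran from -0.69 to 2.24 when an array was left out, and was chosen for this check after its values were seen. Gem and Rimbp2 were added to the checks in the same way. Gem also missed the threshold in the wild-type response with no filter (adjusted p 0.0603), quantile normalization (0.0744), no intensity trend (0.0799) and only the compared groups (0.0947), and at 18 mg/kg with no intensity trend (0.075). The number of channel genes below 0 in the mean kainate response ran from 24 to 27 of 31 under the alternatives that kept all arrays and all 31 genes. It was 23 of the 26 left in the upper 40% of probe sets and 25 of the 29 left without probe sets that may cross-hybridise. With 2 arrays a group, the 95% interval lay within 1 either way on the log2 scale for 8 to 21 of the 31 genes, apart from the mean responses, which limits the size of difference that could be seen.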
